A study of Mus musculus with 10 samples.

Results

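MLL::AF9 tumors were compared with MLL::ENL tumors at the level of the transcriptome, with 3 libraries of each among the 10 libraries of the series, and every gene of the deposited tables was considered. The MLL::AF9 tumors (libraries 2, 47 and 42) arose in untreated C57BL/6 mice that carry the fusion on 1 allele (MLL::AF9+/-). The MLL::ENL tumors (libraries NO, RL and L) were made from wild-type Lin-Sca1+cKit+ (LSK) marrow cells that were transduced with a retrovirus carrying the fusion and transplanted, together with wild-type marrow, into lethally irradiated wild-type C57BL/6 recipients, which are also labelled as untreated. Both kinds of tumor were taken from the spleen, and cells were enriched on beads for Mac1, Gr1 or cKit. The way the leukemia was started therefore goes with the fusion in every library, so that a difference between the fusions and a difference between an inherited allele and a retroviral insertion in transplanted cells cannot be told apart. The other 4 libraries, 2 of wild-type (WT) marrow enriched for cKit and 2 of Cbfb::MYH11 tumors, entered the fit to share the estimate of the spread and are given as reference levels. The Cbfb::MYH11 mice carried Mx1-Cre and a floxed fusion allele, whose expression was induced by injection of Poly(I:C).

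MLL, encoded by Kmt2a in the mouse, is a histone methyltransferase that maintains Hox gene expression. In leukemia its amino-terminal part is joined to a partner protein, and AF9 (Mllt3) and ENL (Mllt1) are closely related partners that both bring the H3K79 methyltransferase DOT1L and the transcription elongation machinery to MLL target genes. Leukemias with either fusion are typically myeloid or monocytic and keep the late HoxA genes and Meis1 active. The comparison asks how far the 2 fusions differ at the RNA level once both have produced a tumor.

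The 6 MLL libraries held between 12134917 and 19345838 expected counts, and levels are given as CPM, a library's counts scaled to a common total after adjustment by trimmed mean of M values (TMM). Kit and Itgam, the genes of 2 of the antigens used to enrich the cells, were detected in all 6 MLL libraries. Of the 5 MLL libraries with a sex label, 4 went against it: libraries 47, NO and RL are labelled female and carried all 4 Y-linked genes checked (Ddx3y, Eif2s3y, Kdm5d and Uty), while library 42 is labelled male, carried none of them at 10 or more counts and had Xist at 172 CPM. The MLL::ENL tumors grew from donor cells in recipients. Whether the labels of NO and RL give the sex of the donor or of the recipient was not determined. The fusion itself was not checked by the sex-linked genes, and gene-level counts do not separate a fusion transcript from the normal genes. Across all genes tested, the libraries did not sort by fusion. The correlation of log2 CPM was 0.868 to 0.922 between MLL::AF9 libraries, 0.913 to 0.960 between MLL::ENL libraries and 0.841 to 0.951 between the groups, where the highest value joined MLL::AF9 47 to MLL::ENL L. Library 2 stood farthest from the other MLL::AF9 libraries, and it had the lowest Hoxa9 and Meis1 of the 6 MLL libraries, at 18.5 and 7.92 CPM. The authors report that tumor burden varied between the spleens before enrichment. The share of tumor cells in each library was not determined, and its part in the differences below was not tested.

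The sequences behind the calls are shown first. Rnf26, a ubiquitin ligase gene of chromosome 9, and Gm9008, which the tables call a predicted pseudogene and Gencode tags as a retrogene of chromosome 6, are shown over the 90 bases of the Rnf26 coding sequence with the most differences between them, since Gm9008 was called between the tumors and its reads can be told from those of Rnf26 only at such bases. Capitals mark the bases that differ. The stretches lie at chr9:44112797-44112886 (Rnf26, minus strand) and chr6:76497479-76497568 (Gm9008, minus strand) in mm10, and they hold 2 of the 11 differences in 1272 aligned coding bases.
Rnf26: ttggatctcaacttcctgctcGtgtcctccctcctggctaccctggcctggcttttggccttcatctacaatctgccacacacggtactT
Gm9008: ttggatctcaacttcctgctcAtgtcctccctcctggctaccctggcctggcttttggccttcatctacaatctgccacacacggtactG

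The promoter windows of Dpp4, the other gene called, and of Tmem176b, whose neighbour Tmem176a starts within the same stretch on the opposite strand, are given from RefSeq (GRCm38.p6), 5′ to 3′ from 250 bases before the start site to 50 bases after it. They lie at chr2:62412182-62412481 (Dpp4, minus strand) and chr6:48841325-48841624 (Tmem176b, minus strand). Capitals mark matches to the motifs searched on both strands, TATAAA (the TATA box), CCAAT (the box bound by NF-Y), GGGCGG (the GC box bound by SP1), TGACAG (the core bound by MEIS proteins) and TGATTTAT (the joint HOXA9 and PBX motif).
Dpp4: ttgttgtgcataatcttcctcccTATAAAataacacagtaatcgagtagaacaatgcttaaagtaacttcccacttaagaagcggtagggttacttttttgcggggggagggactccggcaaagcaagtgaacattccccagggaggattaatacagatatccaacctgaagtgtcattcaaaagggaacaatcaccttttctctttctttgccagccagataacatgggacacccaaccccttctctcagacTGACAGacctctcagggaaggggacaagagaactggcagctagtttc
Tmem176b: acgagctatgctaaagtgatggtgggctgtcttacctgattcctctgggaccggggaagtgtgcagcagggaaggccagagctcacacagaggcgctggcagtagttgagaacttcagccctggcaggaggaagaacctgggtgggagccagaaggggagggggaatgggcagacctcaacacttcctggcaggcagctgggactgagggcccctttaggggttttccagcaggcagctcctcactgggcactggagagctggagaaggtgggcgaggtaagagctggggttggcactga

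The Dpp4 window held TATAAA at position -227 from the start site and TGACAG at position 4. These letters are common: 13.6% of the 32851 mouse promoter windows held TATAAA and 19.2% held TGACAG. The Tmem176b window shown held none of the 5 motifs, and the windows of 2 other annotated Tmem176b starts held TGACAG. The matches are a description of the letters and were not linked to binding of any factor.

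Of 14875 genes tested between MLL::AF9 and MLL::ENL tumors, 2 passed an adjusted p of 0.05 in edgeR's quasi-likelihood test, which is 0.0134% of the genes. Both, Dpp4 and Gm9008, were higher in MLL::AF9 tumors, and 0 genes were higher in MLL::ENL tumors. At an unadjusted p under 0.05, 1077 genes were higher in MLL::AF9 tumors (7.24%) and 437 were higher in MLL::ENL tumors (2.94%). The 3 and 3 libraries did not overlap for 1000 genes that were higher in MLL::AF9 tumors (6.72%) and for 973 that were higher in MLL::ENL tumors (6.54%). The tools differed widely on the same counts, since limma voom called 0 genes, with 1345 at an unadjusted p under 0.05, and DESeq2 called 384 genes higher in MLL::AF9 tumors (2.71%) and 97 higher in MLL::ENL tumors (0.684%) of the 14175 to which it gave an adjusted p. Of those 481 calls, 350 did not overlap between the groups.

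Whether the few calls passed the threshold also depended on single libraries. With any 1 MLL library left out, the log2 fold change stayed at 2.71 to 3.03 for Dpp4 and at 8.89 to 11.35 for Gm9008. Without MLL::AF9 47 the edgeR count was 142, with 123 higher in MLL::AF9 tumors and 19 higher in MLL::ENL tumors, whereas without any 1 of MLL::ENL NO, RL or L it was 0. Without MLL::AF9 2 the count was 3 and Dpp4 was not among them (adjusted p = 0.065), and without MLL::AF9 42 the 2 calls were the pseudogenes Gm8730 and Rps15a-ps7, with Dpp4 and Gm9008 both at 0.072. Without either WT library Dpp4 passed (adjusted p = 0.044) and Gm9008 did not (adjusted p = 0.054 and 0.055). In the 6 MLL libraries fitted alone, 0 genes passed and the adjusted p of both genes was 0.081, with 1051 genes at an unadjusted p under 0.05.

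**Figure D1:**
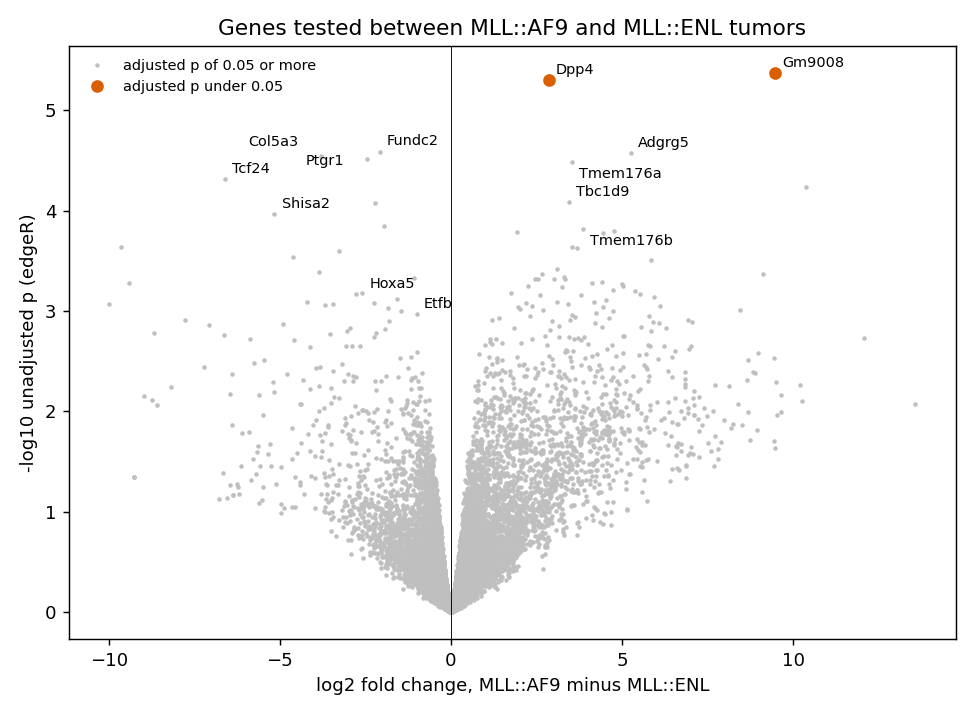
Each point is a gene tested, with the log2 fold change (MLL::AF9 minus MLL::ENL) on the x axis and the negative log10 of the unadjusted edgeR p on the y axis. Only Dpp4 and Gm9008 (orange) passed an adjusted p of 0.05, and the other genes labelled had adjusted p of 0.069 to 0.22 in edgeR.

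Dpp4 encodes dipeptidyl peptidase 4 (CD26), a surface protease that cleaves chemokines such as CXCL12 and serves as a marker on leukemic stem cells of chronic myeloid leukemia. The gene lies at chr2:62330073-62412231. Its level was 34.2, 34.3 and 29.1 CPM in MLL::AF9 2, 47 and 42 and 4.46, 3.52 and 5.42 CPM in MLL::ENL NO, RL and L. The groups did not overlap and the spread within each was small, at 32.5 ± 2.96 CPM against 4.47 ± 0.952 CPM (SD, n = 3). Dpp4 was thus higher in MLL::AF9 tumors by 2.86 ± 0.32 (SE) on the log2 scale, with an adjusted p of 0.037 in edgeR. The 2 WT libraries, at 9.72 and 15.2 CPM, lay between the groups, and the Cbfb::MYH11 tumors reached 116 and 214 CPM. DPP4 is also a T cell antigen, and Cd3e stood at 30.6, 0.15 and 3.36 CPM in MLL::AF9 2, 47 and 42. Dpp4 was at 34.3 CPM in MLL::AF9 47 and at 34.2 CPM in MLL::AF9 2, and the part of T cells in its level was not tested.

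**Figure D2:**
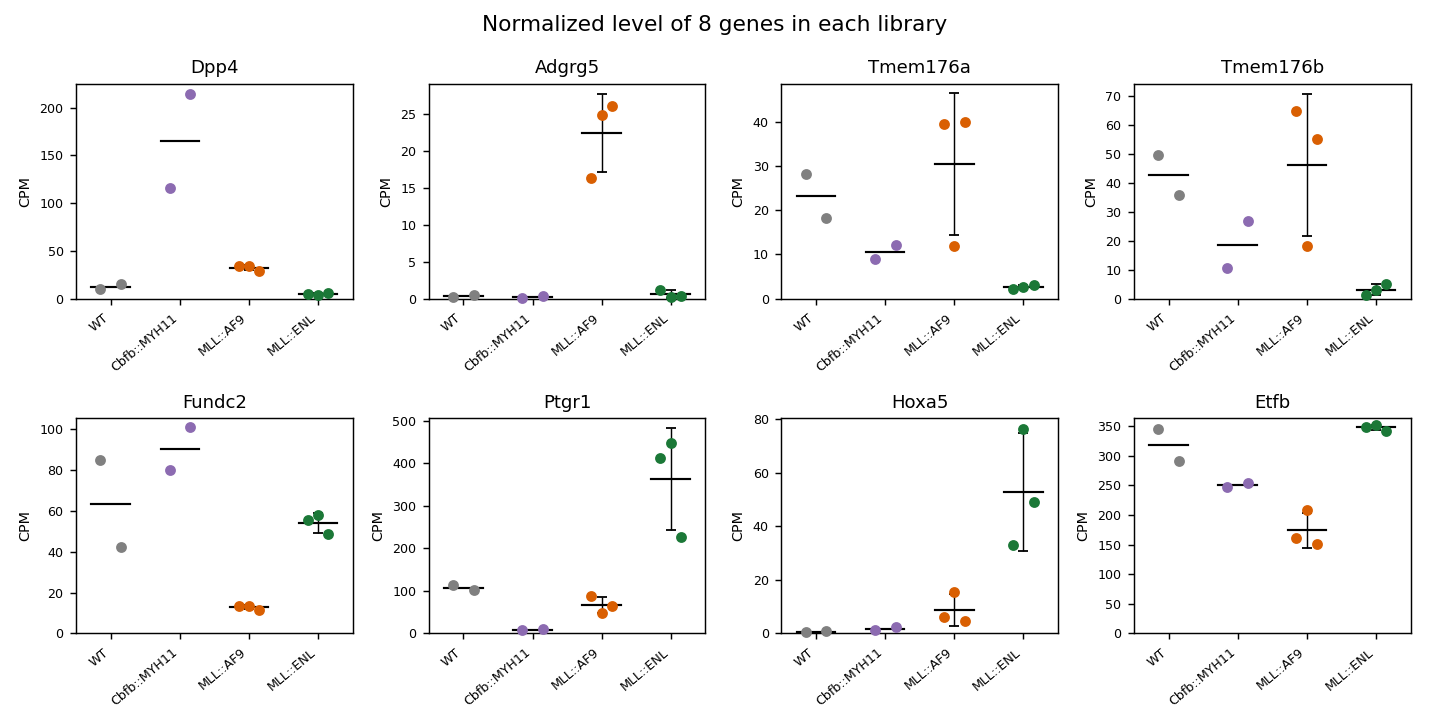
Points are the normalized levels (CPM) of single libraries, bars are group means and whiskers are 1 SD for the groups of 3. The 3 MLL::AF9 libraries and the 3 MLL::ENL libraries do not overlap in any of the 8 panels, with Dpp4 at 29.1 to 34.3 CPM against 3.52 to 5.42 CPM.

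Gm9008 was detected in the MLL::AF9 tumors and almost nowhere else. It stood at 8.91, 28.3 and 18.8 CPM in MLL::AF9 2, 47 and 42, at 0, 0 and 0.0521 CPM in MLL::ENL NO, RL and L, and at no more than 0.201 CPM in the WT and Cbfb::MYH11 libraries. Over the groups this was 1074 counts against 1, a ratio of 1030 with a 95% counting interval of 184 to 40600, which covers counting error only. The adjusted p was 0.037 in edgeR. The call is uncertain, because 2322 bases of its 2353-base transcript align to Rnf26 transcripts with 99.05% identity, and expected counts divide reads that fit both. Rnf26 itself was lower in MLL::AF9 tumors, at 49.2 to 64.8 CPM against 83.8 to 148 CPM, without passing (log2 fold change -0.95 ± 0.26, adjusted p = 0.29 in edgeR). With the counts of both merged, chosen after seeing the data, the levels were 58.1, 93.2 and 79.1 CPM against 105, 148 and 83.9 CPM, and the groups overlapped (log2 fold change -0.55 ± 0.28, adjusted p = 0.57 in edgeR). In that fit 0 genes were called and Dpp4 had an adjusted p of 0.074.

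**Figure D3:**
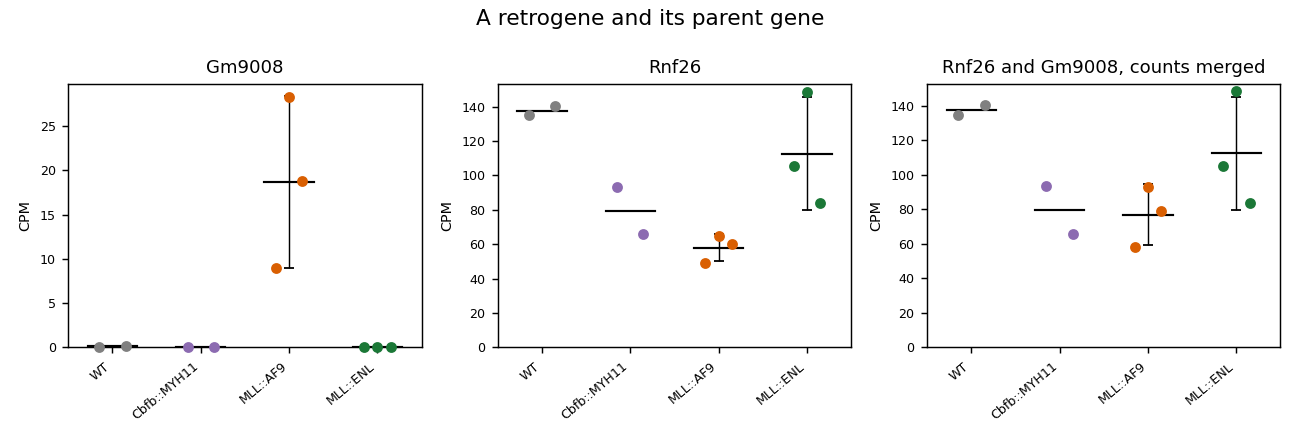
Levels in CPM of Gm9008, of Rnf26 and of both with their counts merged, by group, with points for single libraries, bars for means and whiskers of 1 SD for the groups of 3. Gm9008 is above 8 CPM only in the 3 MLL::AF9 libraries, and the merged level overlaps between MLL::AF9 (58.1 to 93.2 CPM) and MLL::ENL (83.9 to 148 CPM).

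Further processed copies were examined with their parent genes, and they were picked out after their values were seen. Gm15459, a processed copy of the chaperone gene Hspa8 that lies on chromosome 5, stood at 52.3, 281 and 695 CPM in MLL::AF9 2, 47 and 42 against 22.2, 5.82 and 4.59 CPM in MLL::ENL NO, RL and L (log2 fold change 5.0, adjusted p = 0.21 in edgeR). It is 99.74% identical to Hspa8 over its whole length, and Gm26825 overlaps it on the other strand. Merged with both, Hspa8 was at 1754 to 3277 CPM against 1298 to 1779 CPM, and the groups overlapped (log2 fold change 0.59, adjusted p = 0.63 in edgeR). Gm6969, a 342-base copy of the respiratory chain gene Cox7a2l, had 527 counts in the MLL::AF9 libraries and 0 in the MLL::ENL libraries, at least 168-fold higher against a floor of 3 counts over the group, and the merged levels of the pair again overlapped. Parents with their copies merged did not pass for any of the 5 pairs examined, which also include Rps7 with Gm6472 and Ftl1 with Ftl1-ps1.

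The genes that came closest to the threshold are given next, 13 higher in MLL::AF9 tumors and 15 higher in MLL::ENL tumors, and none of them passed in the edgeR fit. On the MLL::AF9 side, the closest was Adgrg5, an adhesion G protein-coupled receptor. It stood at 16.3, 24.8 and 26.1 CPM in MLL::AF9 2, 47 and 42 and at 1.21, 0.271 and 0.365 CPM in MLL::ENL NO, RL and L, with WT libraries below 0.6 CPM (log2 fold change 5.25 ± 0.71, adjusted p = 0.069 in edgeR). Each MLL::AF9 library was more than 10 times as high as the highest MLL::ENL library.

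Tmem176a and Tmem176b are neighbouring genes for ion channels of the endosomes of dendritic cells and other myeloid cells. Tmem176a stood at 39.3, 12.0 and 39.9 CPM in MLL::AF9 2, 47 and 42 and at 2.23, 2.57 and 2.97 CPM in MLL::ENL NO, RL and L (log2 fold change 3.54, adjusted p = 0.069). Tmem176b stood at 64.8, 18.2 and 55.2 CPM against 1.30, 2.93 and 5.16 CPM (log2 fold change 3.86, adjusted p = 0.15). For both, MLL::AF9 47 was the lowest MLL::AF9 library, and the WT levels of 18.3 to 28.2 CPM and 35.6 to 49.5 CPM were within the range of the MLL::AF9 tumors.

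Other surface proteins on this side were Itgax, the CD11c integrin chain of dendritic cells and monocytes, Clec4b2, a myeloid C-type lectin, and Abcb1b, a multidrug efflux pump. Itgax was at 40.6, 21.8 and 23.1 CPM in MLL::AF9 2, 47 and 42 against 5.48, 2.80 and 7.30 CPM in MLL::ENL NO, RL and L. Clec4b2 was at 14.7, 61.7 and 53.2 CPM against 5.29, 1.58 and 0.730 CPM. Abcb1b was at 15.9, 11.8 and 18.0 CPM against 1.21, 2.26 and 2.09 CPM, and the 2 WT libraries, at 3.08 and 2.97 CPM, lay between the groups. Their log2 fold changes were 2.46, 4.13 and 3.03, and each had an adjusted p of 0.21 in edgeR.

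Enzymes and regulators made up the rest. Entpd5, a nucleotide hydrolase of the endoplasmic reticulum, was at 71.9, 56.0 and 120 CPM in MLL::AF9 2, 47 and 42 against 26.6, 23.3 and 14.8 CPM in MLL::ENL NO, RL and L. Kmo, a kynurenine pathway enzyme, was at 14.6, 6.03 and 10.5 CPM against 1.76, 1.71 and 1.82 CPM. Tbc1d9, a Rab GTPase-activating protein, and Sesn3, a stress-induced inhibitor of mTORC1 signaling, stood at 5.34 to 16.5 CPM and 13.2 to 34.5 CPM in MLL::AF9 tumors and at 0.902 to 1.36 CPM and 1.62 to 3.75 CPM in MLL::ENL tumors. Irf4, a transcription factor of lymphoid and dendritic cells, was at 27.2, 4.64 and 19.3 CPM against 2.23, 1.22 and 1.62 CPM. The interferon-inducible Ifi213 was at 29.9, 125 and 11.8 CPM against 2.14, 0.361 and 0.574 CPM. Ighg2b, an immunoglobulin heavy chain constant region, was at 167, 37.2 and 227 CPM against 7.06, 13.4 and 16.4 CPM. None of these 7 passed, with adjusted p of 0.11 to 0.21 in edgeR.

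On the MLL::ENL side, Fundc2, a FUN14 domain protein of the outer mitochondrial membrane that lies on the X chromosome, is given first. It stood at 13.6, 13.3 and 11.6 CPM in MLL::AF9 2, 47 and 42 and at 55.8, 58.1 and 48.5 CPM in MLL::ENL NO, RL and L (log2 fold change -2.08 ± 0.28, adjusted p = 0.069 in edgeR). The MLL::ENL libraries lay within the WT range of 42.3 to 84.9 CPM, and all 3 MLL::AF9 libraries lay below it. Fundc2 passed when either WT library was left out (adjusted p = 0.044). It has no near-identical copy among the Gencode transcripts at 95% identity over at least 50% of its transcript.

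Ptgr1, a reductase that inactivates prostaglandins and leukotriene B4, and its neighbour Dnajc25, which encodes a DnaJ chaperone, were both lower in the MLL::AF9 tumors. Ptgr1 was at 87.4, 48.5 and 64.4 CPM in MLL::AF9 2, 47 and 42 against 412, 448 and 226 CPM in MLL::ENL NO, RL and L (log2 fold change -2.44, adjusted p = 0.069). Dnajc25 was at 7.22, 9.53 and 12.4 CPM against 31.9, 51.3 and 29.0 CPM (log2 fold change -1.94, adjusted p = 0.15). For both genes, the 3 MLL::ENL libraries were above the 2 WT libraries and the 3 MLL::AF9 libraries were below them.

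Tcf24 and Shisa2 were below 4 CPM in all 3 MLL::AF9 tumors. Tcf24, which encodes a basic helix-loop-helix factor, was at 0.707, 0.349 and 0.395 CPM in MLL::AF9 2, 47 and 42 against 17.4, 29.3 and 93.5 CPM in MLL::ENL NO, RL and L, and it had 0 CPM in both WT libraries (log2 fold change -6.60, adjusted p = 0.090). Shisa2, an inhibitor of Wnt and FGF receptor maturation, was at 0.212, 3.29 and 0.740 CPM against 44.5, 73.7 and 36.4 CPM (log2 fold change -5.16, adjusted p = 0.13). Col5a3, a fibrillar collagen chain of chromosome 9, was at 0.566, 0.648 and 1.28 CPM against 12.1, 12.3 and 10.9 CPM (log2 fold change -3.80, adjusted p = 0.069).

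The remaining 9 genes on this side were Tsc22d2, Ankrd63, Mgl2, Acp1, Hoxa5, Pbx3, Nucb2, Tmem119 and Csf2rb2, with log2 fold changes between -3.87 and -1.08 and adjusted p of 0.11 to 0.21 in edgeR. Mgl2, a galactose-type lectin of macrophages and dendritic cells, was at 5.66, 1.99 and 5.43 CPM in MLL::AF9 2, 47 and 42 against 16.6, 131 and 43.1 CPM in MLL::ENL NO, RL and L. Csf2rb2, which encodes the mouse-specific beta chain of the IL-3 receptor, was at 20.2, 21.7 and 28.1 CPM in MLL::AF9 2, 47 and 42 against 105, 92.8 and 53.4 CPM in MLL::ENL NO, RL and L. Its transcript is 95.12% identical to that of Csf2rb over 66.1% of its length, so that the division of reads between them is uncertain. Il3ra, the alpha chain of the same receptor, was also lower in MLL::AF9 tumors, at 15.9, 52.5 and 25.3 CPM against 55.8, 61.7 and 96.6 CPM (log2 fold change -1.19, adjusted p = 0.35).

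Kmt2a stood at 75.1, 70.5 and 61.9 CPM in MLL::AF9 2, 47 and 42 and at 44.7, 39.1 and 37.1 CPM in MLL::ENL NO, RL and L, without overlap (log2 fold change 0.78 ± 0.44, adjusted p = 0.62 in edgeR), and WT libraries were at 12.8 and 23.1 CPM. The Cbfb::MYH11 libraries 30 and 27, which enter the spread behind this SE and p, were far apart at 125 and 29.8 CPM. Mllt3 (AF9) was at 12.6, 1.2 and 3.85 CPM against 4.92, 2.44 and 1.25 CPM, with overlap. Mllt1 (ENL) was at 34.9 to 57.8 CPM against 37.2 to 53.5 CPM. Of the 16 genes listed for the fusions and the DOT1L complex, 0 passed and the median log2 fold change was 0.24, against -0.01 over all genes tested. The 3 whose libraries did not overlap, beside 13.3% of all genes, were Kmt2a, Men1, which encodes the MLL cofactor menin, and Psip1, which encodes the chromatin tether LEDGF, and all were higher in MLL::AF9 tumors. Men1 was at 36.5, 45.0 and 53.2 CPM against 24.3, 30.8 and 34.0 CPM, and Psip1 was at 57.3, 62.7 and 67.9 CPM against 39.9, 44.3 and 44.6 CPM, with log2 fold changes of 0.59 and 0.55.

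Among 22 known MLL fusion targets, 0 passed, and 6 were lower without overlap in MLL::AF9 tumors while 1 was higher, beside 6.54% and 6.72% of all genes. The median log2 fold change was -0.61. Hoxa5 stood at 6.23, 15.5 and 4.44 CPM in MLL::AF9 2, 47 and 42 and at 33.0, 76.6 and 49.1 CPM in MLL::ENL NO, RL and L, with WT libraries below 1 CPM (log2 fold change -2.60 ± 0.53, adjusted p = 0.21 in edgeR). Hoxa7 was at 9.97, 43.3 and 21.0 CPM against 59.5, 62.6 and 59.8 CPM (log2 fold change -1.29, adjusted p = 0.52). Hoxa9, the HoxA gene most closely tied to MLL leukemia, overlapped, at 18.5, 214 and 46.8 CPM against 149, 191 and 173 CPM (log2 fold change -0.88 ± 0.74, adjusted p = 0.78). The HoxA level was highest in MLL::AF9 47 among the MLL::AF9 tumors for each of Hoxa5, Hoxa7 and Hoxa9, and for Hoxa9 it was above all MLL::ENL libraries.

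Meis1 was at 7.92, 96.6 and 52.5 CPM in MLL::AF9 2, 47 and 42 against 46.9, 29.5 and 78.1 CPM in MLL::ENL NO, RL and L (log2 fold change 0.02 ± 0.82). Pbx3 was at 1.49, 5.69 and 2.62 CPM against 14.3, 16.7 and 35.7 CPM (log2 fold change -2.76 ± 0.56, adjusted p = 0.21). The target that was higher without overlap, Mecom, which encodes the stem cell factor EVI1, was at 55.3 CPM in MLL::AF9 42 and below 1 CPM in every other MLL library. Its lack of overlap rests on very low values, at 0.0499 CPM in MLL::AF9 47 against 0.0451 CPM in MLL::ENL RL. Penk, a proenkephalin gene expressed in MLL leukemia, was at 28.9, 165 and 170 CPM against 530, 305 and 145 CPM, with overlap (log2 fold change -1.43, adjusted p = 0.49).

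The electron transfer flavoprotein, a mitochondrial heterodimer of ETFA and ETFB that passes electrons from fatty acid and amino acid oxidation to the respiratory chain, was measured for both subunits. Etfb stood at 162, 208 and 152 CPM in MLL::AF9 2, 47 and 42 and at 349, 352 and 342 CPM in MLL::ENL NO, RL and L, with WT libraries at 346 and 291 CPM. The groups did not overlap, and the MLL::ENL libraries were within 10 CPM of each other (log2 fold change -1.0 ± 0.22, adjusted p = 0.22 in edgeR). Etfa overlapped, at 61.2, 103 and 88.1 CPM against 95.2, 104 and 79.1 CPM (log2 fold change -0.14 ± 0.24, adjusted p = 0.92). Etfdh, the dehydrogenase that accepts their electrons, overlapped as well, at 23.3 to 29.5 CPM against 20.5 to 32.8 CPM. Among the 14 genes listed for this system and beta-oxidation, 2 did not overlap, Etfb and Acadl, which is near the 13.3% of all genes that did not overlap in either direction. Acadl, the long-chain acyl-CoA dehydrogenase, was at 52.1, 30.5 and 54.9 CPM against 123, 89.0 and 62.9 CPM (log2 fold change -1.0, adjusted p = 0.32).

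For the nuclear genes of the respiratory chain, 0 of 79 tested passed, and 18 were lower without overlap in MLL::AF9 tumors while 1 was higher, beside 6.54% and 6.72% of all genes. Their median log2 fold change was -0.29, and 7 of 79 had a positive value. The summed level was 8642 to 11110 CPM in MLL::AF9 tumors and 10750 to 11860 CPM in MLL::ENL tumors. Examples are the complex I subunit genes Ndufa5, at 38.8, 29.6 and 23.9 CPM in MLL::AF9 2, 47 and 42 against 48.5, 51.6 and 48.2 CPM in MLL::ENL NO, RL and L, and Ndufb10, at 122, 91.1 and 83.9 CPM against 187, 136 and 160 CPM. Their log2 fold changes of -0.69 and -0.70 did not pass (adjusted p = 0.36 and 0.42). The mitochondrial genome itself took 10.2%, 2.59% and 2.23% of the counts in MLL::AF9 2, 47 and 42 and 10.6%, 3.93% and 5.15% in MLL::ENL NO, RL and L. These shares overlapped (exact permutation test, two-sided, p = 0.5, where 3 against 3 cannot go below 0.1).

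Lists of blood cell markers were set beside these genes. In bulk samples, more cells of a type and more RNA per cell cannot be told apart. The antigen presentation genes of dendritic cells and B cells were led by Cd74, the invariant chain, at 3828, 509 and 1313 CPM in MLL::AF9 2, 47 and 42 against 216, 50.9 and 37.5 CPM in MLL::ENL NO, RL and L (log2 fold change 4.21, adjusted p = 0.23). H2-Ab1, an MHC class II chain, was at 2376, 279 and 599 CPM against 107, 34.3 and 37.8 CPM, and Ciita, the master regulator of the class, was at 138, 24.1 and 41.9 CPM against 7.33, 2.17 and 0.365 CPM. Of 14 genes listed for dendritic cells and MHC class II, 8 were higher without overlap in MLL::AF9 tumors and 10 had an unadjusted p under 0.05, beside 6.72% and 7.24% of all genes. The median log2 fold change was 4.18, but 0 passed. Xcr1 and Clec9a, which mark conventional dendritic cells, were at 13.4 and 7.92 CPM in MLL::AF9 2 and below 1 CPM in the other MLL libraries.

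Lymphoid markers followed. The T cell receptor gene Trac was at 26.5, 0.249 and 3.06 CPM in MLL::AF9 2, 47 and 42 against 0.186, 0.271 and 0.156 CPM in MLL::ENL NO, RL and L. MLL::AF9 47 was within the MLL::ENL range. The summed level of the 15 B cell genes was 368 to 6617 CPM in MLL::AF9 tumors and 442 to 873 CPM in MLL::ENL tumors, and that of the 16 T and NK cell genes was 75.0 to 506 CPM against 37.4 to 134 CPM. The median log2 fold changes were 2.84 and 3.26, and 0 genes of either list passed. Higher without overlap were 2 of 15 and 1 of 16 genes, beside 6.72% of all genes. At an unadjusted p under 0.05 in edgeR, 8 of 15 and 12 of 16 were higher and 0 were lower. The shares of all genes were 7.24% and 2.94%. In MLL::AF9 47, Itgax, Tmem176a and Cd74 were above all 3 MLL::ENL libraries. Lymphoid markers were mixed in that library. Trac was within the MLL::ENL range and the summed B cell level of 368 CPM was below all 3 MLL::ENL libraries. Cd22 and Bcl11b, at 22.7 and 23.3 CPM, were above all 3. The part of lymphoid cells in the higher levels of Irf4, Itgax, Tmem176a, Tmem176b, Ighg2b and the MHC class II genes was not tested.

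**Figure D4:**
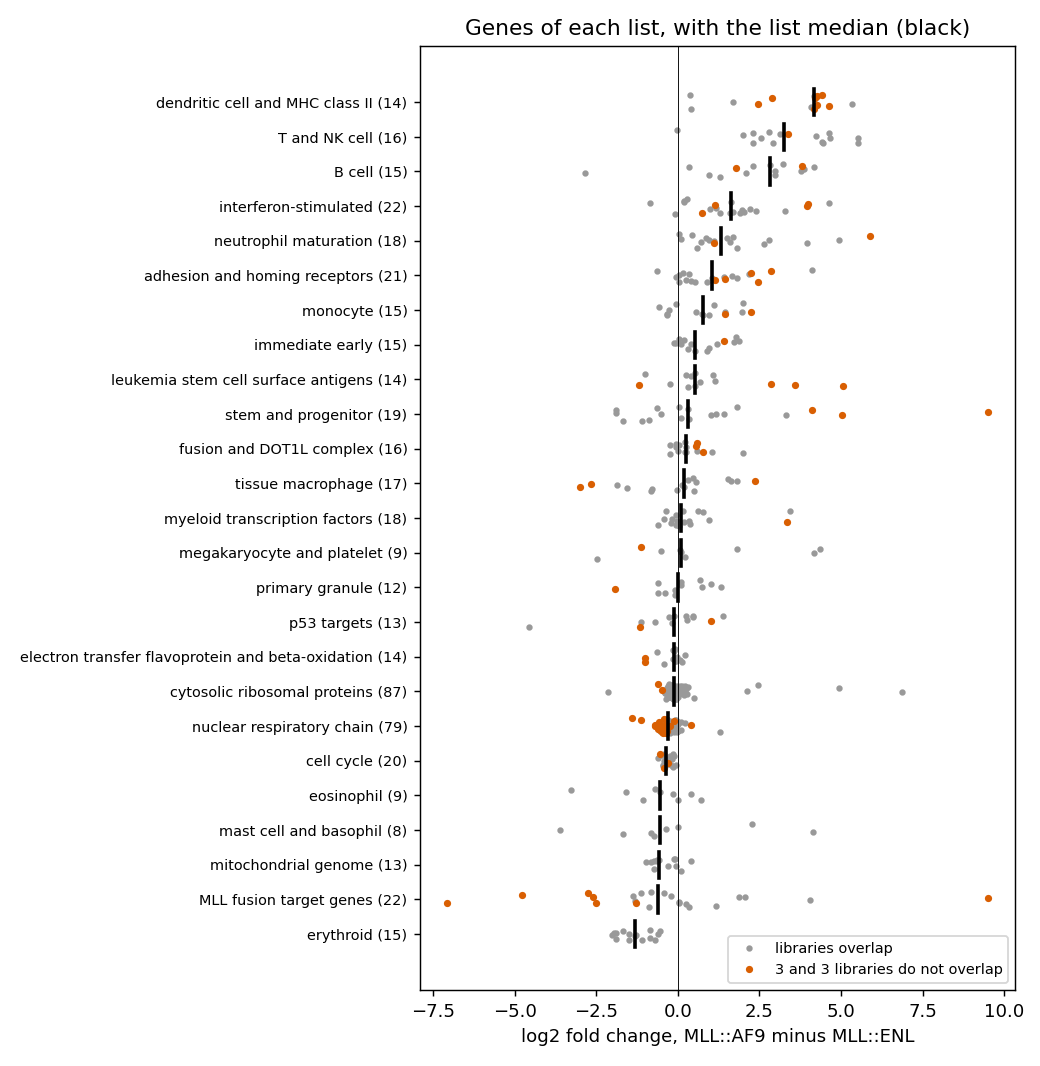
Each point is a tested gene of a list, placed by its log2 fold change (MLL::AF9 minus MLL::ENL), orange where the 3 and 3 libraries do not overlap, and the black bar is the list median; the number of genes tested stands after each list name. The dendritic cell and MHC class II list has the highest median (4.18) and the erythroid list the lowest (-1.30).

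Myeloid markers varied widely within the groups. S100a8, the calgranulin of maturing neutrophils, was at 37027, 2682 and 9659 CPM in MLL::AF9 2, 47 and 42 against 19395, 2561 and 1006 CPM in MLL::ENL NO, RL and L. Libraries 2 and NO were the highest of their groups, and the groups overlapped. All 18 neutrophil maturation genes had a positive log2 fold change, with a median of 1.32, 2 did not overlap, beside 13.3% of all genes, and 0 passed. The 2 were Chil1, a chitinase-like protein of secondary granules, at 408, 19.0 and 251 CPM against 8.91, 2.62 and 0.209 CPM, and Csf3r, the G-CSF receptor, at 313, 142 and 235 CPM against 127, 118 and 70.7 CPM. The primary granule genes had a median of 0.01. Mpo, the myeloperoxidase gene, was at 789.9, 1554 and 5179 CPM against 1001, 6651 and 411 CPM.

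Among 15 monocyte genes, 2 did not overlap, Ccr2 and Cx3cr1, near the 13.3% of all genes. Ccr2, the receptor for monocyte chemoattractant protein, was at 176, 66.3 and 230 CPM in MLL::AF9 2, 47 and 42 against 26.2, 23.9 and 48.9 CPM in MLL::ENL NO, RL and L (log2 fold change 2.26, adjusted p = 0.21), and Cx3cr1, the fractalkine receptor, was at 50.3, 39.3 and 47.4 CPM against 9.47, 7.76 and 32.5 CPM (log2 fold change 1.46, adjusted p = 0.41). Of the 21 adhesion and homing receptors, 5 were higher without overlap in MLL::AF9 tumors and 0 were lower, beside 6.72% and 6.54% of all genes, with a median log2 fold change of 1.06. They included Ccr2, Cx3cr1 and Itgax. Itgam, which encodes the Mac1 antigen used to enrich the cells, overlapped, at 857, 367 and 688 CPM against 1004, 342 and 374 CPM (log2 fold change 0.15 ± 0.48).

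Kit was at 31.3, 52.4 and 49.4 CPM in MLL::AF9 2, 47 and 42 against 46.6, 119 and 76.5 CPM in MLL::ENL NO, RL and L (log2 fold change -0.87 ± 0.37, adjusted p = 0.47), and Cd34 ranged from 4.17 to 86.7 CPM against 3.53 to 326 CPM. The median of the 19 stem and progenitor genes tested was 0.31, and 3 did not overlap, near the 13.3% of all genes in either direction. They were Mecom, Procr and Ly6a, and for Mecom the lack of overlap rests on very low values. Procr was at 0.549 to 2.90 CPM against at most 0.0521 CPM. Ly6a, which encodes Sca1, was at 107, 4.09 and 20.8 CPM against 3.99, 1.90 and 1.82 CPM. Of the 14 surface antigens listed for leukemia stem cells, Dpp4 was the 1 that passed, beside 0.0134% of all genes. This list was chosen with earlier results of these data known. Without overlap, 3 of the 14, Dpp4, Havcr2 and Cd96, were higher in MLL::AF9 tumors and 1, Il3ra, was lower. The shares of all genes were 6.72% and 6.54%. Cd33 was at 144, 247 and 190 CPM against 689, 199 and 274 CPM and Cd47 at 377, 500 and 458 CPM against 620, 524 and 417 CPM, both with overlap.

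Red cell genes were lower in MLL::AF9 tumors for all 15 members, with a median log2 fold change of -1.30, but 0 had an unadjusted p under 0.05 and none separated the groups. Hbb-bs, an adult beta globin, was at 35.9, 9.53 and 2318 CPM in MLL::AF9 2, 47 and 42 against 3252, 809 and 173 CPM in MLL::ENL NO, RL and L. Hemoglobin took at most 0.872% of the counts of any MLL library. Fcer1a and Ear1, markers of mast cells and eosinophils, were at 0 CPM in all 6 MLL libraries, but other members of their lists were not. The summed level of the mast cell and basophil list was 21.9 to 258 CPM in MLL::AF9 tumors and 71.1 to 326 CPM in MLL::ENL tumors, and that of the eosinophil list was 15.9 to 75.8 CPM against 39.2 to 115 CPM. The 17 tissue macrophage genes tested had a median of 0.19, and they were mixed, with 1 higher and 2 lower without overlap in MLL::AF9 tumors, beside 6.72% and 6.54% of all genes. C1qb, a complement component made by macrophages, was higher at 18.3, 7.73 and 18.1 CPM against 0.464, 1.22 and 6.73 CPM (log2 fold change 2.36, adjusted p = 0.33). Vcam1, an adhesion molecule of splenic macrophages and stroma, was lower at 9.41, 31.4 and 12.2 CPM against 45.9, 209 and 77.7 CPM (log2 fold change -2.65, adjusted p = 0.25).

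Interferon-stimulated genes were high in MLL::AF9 2. Their summed level was 400 to 1308 CPM in MLL::AF9 tumors and 329 to 392 CPM in MLL::ENL tumors, so that no MLL::AF9 library was below the highest MLL::ENL library, but the margin was small outside library 2. Oasl2, an oligoadenylate synthetase-like gene, was at 85.5, 2.94 and 4.39 CPM in MLL::AF9 2, 47 and 42 against 1.95, 1.44 and 2.56 CPM in MLL::ENL NO, RL and L. Of the 22 genes, 4 were higher without overlap and 0 were lower, beside 6.72% and 6.54% of all genes, with a median of 1.62, and 0 passed.

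All 20 cell cycle genes had a negative log2 fold change, between -0.60 and -0.06 with a median of -0.37, 3 of them without overlap beside 6.54% of all genes, and 0 had an unadjusted p under 0.05. Pcna, the sliding clamp of DNA replication, was at 277, 355 and 294 CPM in MLL::AF9 2, 47 and 42 against 466, 491 and 400 CPM in MLL::ENL NO, RL and L (log2 fold change -0.55, adjusted p = 0.50). Of the 15 immediate early genes, Zfp36 alone did not overlap, beside 13.3% of all genes, at 528, 239 and 525 CPM against 83.8, 212 and 187 CPM (log2 fold change 1.42, adjusted p = 0.32), while Fos overlapped, with MLL::ENL NO at 14.7 CPM and the other 5 MLL libraries at 90.4 to 259 CPM. Among 13 p53 targets, 1 was higher and 1 lower without overlap, beside 6.72% and 6.54% of all genes. Sesn2, a stress-induced inhibitor of mTORC1 signaling, was at 21.3, 17.3 and 23.2 CPM against 9.10, 10.4 and 11.2 CPM (log2 fold change 1.01, adjusted p = 0.32). Cdkn1a, which encodes p21, was at 18.0, 14.9 and 30.2 CPM against 41.4, 44.0 and 54.8 CPM (log2 fold change -1.15, adjusted p = 0.30). Ribosomal protein genes had a median of -0.13 over 87 tested.

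Chromosome 9, which carries Kmt2a, stood out among the chromosomes. Over its 486 genes with a mean of at least 10 CPM in the MLL libraries, the median log2 difference from the 3 MLL::ENL libraries was 0.48 in MLL::AF9 47, 0.27 in MLL::AF9 42 and -0.03 in MLL::AF9 2, while the other 19 chromosomes lay between -0.11 and 0.11 in these libraries. In MLL::AF9 47 the shift ran along the whole chromosome, with 431 of 486 genes above 0 and medians of 0.41 to 0.54 in each of the 5 parts into which it was divided. In MLL::AF9 42 it was 0.42 to 0.56 up to 70 Mb and -0.13 and -0.09 beyond. Measured against the other 2 MLL::ENL libraries, MLL::ENL RL had a median of 0.19, and NO and L had -0.06 and -0.09.

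**Figure D5:**
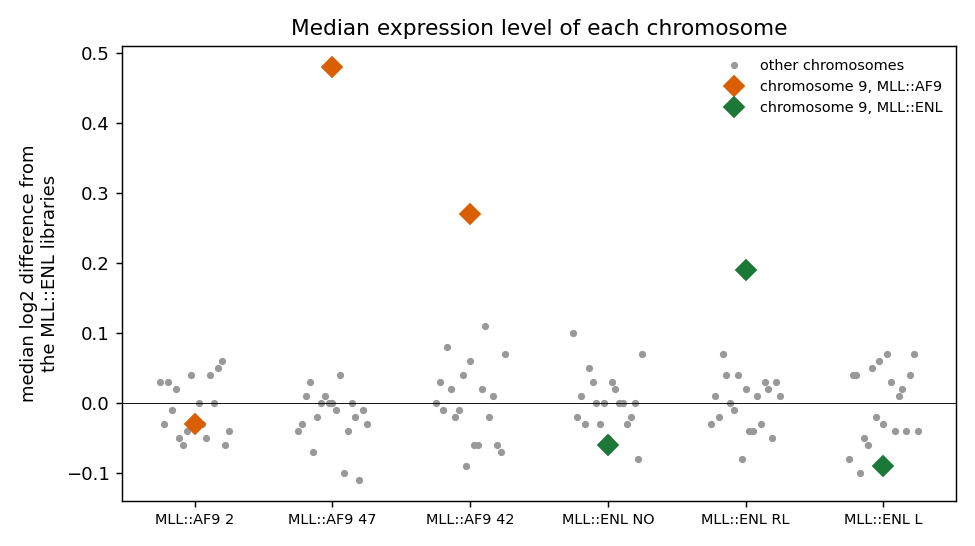
Median log2 difference of each chromosome's genes from the MLL::ENL libraries (for an MLL::ENL library, from the other 2), with chromosome 9 as diamonds and the other 19 chromosomes as gray points. Chromosome 9 lies at 0.48 in MLL::AF9 47, 0.27 in MLL::AF9 42 and 0.19 in MLL::ENL RL, and the other chromosomes lie between -0.11 and 0.11.

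On chromosome 9, 9.20% of 826 gene entries were higher in MLL::AF9 tumors at an unadjusted p under 0.05 and 0.969% were higher in MLL::ENL tumors. The shares of all genes tested were 7.24% and 2.94%. The share higher in MLL::AF9 tumors was larger on chromosomes 6 (9.73%) and 16 (9.33%), so it does not set chromosome 9 apart. The median log2 fold change was 0.21 on chromosome 9 and between -0.07 and 0.05 on the other 19. Within 5 Mb of Kmt2a, 82 entries were counted, 0 passed, 11 were higher and 3 lower at an unadjusted p under 0.05, and the median was 0.33. The counts by chromosome, near Kmt2a and in the gene lists were drawn from 15083 entries, more than the 14875 genes tested. They can therefore include untested entries, which can carry the values of another gene whose name begins alike. These counts, shares and medians are approximate. Kmt2a and Sesn3 both lie on chromosome 9, whose median level was -0.03, 0.48 and 0.27 in MLL::AF9 2, 47 and 42. In the same libraries Kmt2a was at 75.1, 70.5 and 61.9 CPM and Sesn3 at 34.5, 13.2 and 21.6 CPM. The part of the chromosome 9 shift in the higher levels of Kmt2a and Sesn3 was not tested. The genes that were higher near Kmt2a include Il10ra, the receptor for interleukin 10, at 55.1 ± 27.2 CPM against 11.1 ± 5.47 CPM (SD, n = 3, log2 fold change 2.32, adjusted p = 0.22 in edgeR), and the 3 CD3 chain genes Cd3d, Cd3e and Cd3g, which were highest in MLL::AF9 2.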

How the data were processed

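RNA was measured in 10 libraries of enriched mouse cells, 3 of them from MLL::AF9 and 3 from MLL::ENL tumors, 1 library a mouse. The submitters' notes name FastQC, STAR, RSEM and the mm10 build, with no versions or parameters. The authors deposited RSEM gene tables of 50600 entries that hold expected counts, which are estimated counts that divide reads shared by similar genes, and TPM, which the authors' RSEM run scaled by length and to a fixed library total.

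Expected counts were rounded to whole numbers, filtered by edgeR's filterByExpr and scaled by TMM. The main test was edgeR 4.0.16 (R 4.3.3) by quasi-likelihood over all 10 libraries, with Benjamini-Hochberg adjustment over all genes tested and a threshold of 0.05. DESeq2 1.42.0 and limma 3.58.1 (voom) were alternatives, as were RLE scaling, other filters, the mitochondrial genome left out, the 6 MLL libraries alone, labelled sex as a term (without MLL::ENL L, which has no sex label) and each library left out. The FPKM values that the authors deposited beside them were not used. TPM served only for shares of the library total. Shares were compared by a two-sided exact permutation test. Copies were found with BLAST 2.17.0. The tests were tried on simulated data. The edgeR p-values of the main fit rest on a spread estimated over all 10 libraries, with 6 residual degrees of freedom. The permutation p-values rest on the 3 and 3 mice.

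Members and gene lists were chosen with earlier results of these data known. Genes named were those past the threshold without overlap and with at least 10 CPM in the higher group, filled up to 15 a direction by the smallest unadjusted p, together with a fixed set of genes, leading list members and the 5 genes with the largest range within each group. Other list members and the pseudogene copies were named after their values were seen. The WT and Cbfb::MYH11 libraries entered the fit for the shared spread and served as reference levels. Results for some list members are not reported here.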

Additional observations from a re-analysis of the deposited data

Results flagged for a closer look

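The 30 genes that were called or came closest to the threshold had been chosen for no overlap between the fusions. For 11 of them, all 3 MLL::AF9 libraries lay on one side of both WT libraries and all 3 MLL::ENL libraries on the other. The share of all genes with this placement was not counted. With 2 WT libraries this opposite placement was not tested. Of the 11, Dpp4 (log2 fold change 2.86) and Gm9008 (9.48) passed the edgeR test between the fusions. For Gm9008 the placement rests on very low values, at no more than 0.0521 CPM in MLL::ENL libraries against 0.079 and 0.201 CPM in WT libraries. Higher in MLL::AF9 tumors without passing were Tbc1d9 (3.45), Sesn3 (3.10), Abcb1b (3.03) and Clec4b2 (4.13). Higher in MLL::ENL tumors without passing were Col5a3 (-3.80), Ptgr1 (-2.44), Dnajc25 (-1.94), Nucb2 (-1.58) and Tmem119 (-3.69). Groups of 3 were not tested for outlying libraries.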

How the results depend on the processing

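The 2 calls were 481 with DESeq2 (384 higher in MLL::AF9 and 97 higher in MLL::ENL tumors), 299 without a filter (238 and 61), and 0 with limma voom, the 6 MLL libraries alone, labelled sex as a term without MLL::ENL L, or copies merged with their parent genes. Leaving out MLL::ENL L with no sex term also gave 0. With single libraries left out, the count ran from 0 to 142, from 0 to 123 for genes higher in MLL::AF9 tumors and from 0 to 19 for genes higher in MLL::ENL tumors. The cause was not tested. The log2 fold change of Dpp4 was 2.71 to 3.11 under all alternatives, with adjusted p of 1.5e-04 (no filter) to 0.35 (without MLL::ENL RL) in edgeR, 7.1e-12 in DESeq2 and 0.072 in limma voom. Over 94 named genes, 24 changed direction under at least 1 alternative, and neither Dpp4 nor Gm9008 was among them.

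The fit with labelled sex as a term also left out MLL::ENL L, which has no sex label, and 4 libraries went against their labels. It turned the log2 fold change of Cd34 (to 2.56), Cpa3 (1.2), Ddx3y (0.24), Etfa (0.05), Hoxa9 (0.33), Hspa1a (-1.44), Hspa1b (-1.27), Ighv14-4 (-1.69), Igkv6-17 (-3.95), Itgam (-0.87), Kdm5d (0.06), Ltf (-1.53), Mllt3 (-1.60), Uty (0.46), Xist (-2.69), Xcr1 (-5.25), S100a8 (-2.03), Fos (-0.60) and Cd3e (-2.02). Leaving out MLL::ENL L alone already turned Cd34 (2.16), Hspa1a (-0.39), Hspa1b (-0.14) and Itgam (-0.08). Limma voom turned Meis1 (-0.39) and Mpo (0.41). Leaving out single libraries gave ranges that cross 0 for Cd34 (-1.66 to 2.16), Etfa (-0.31 to 0.06), Hspa1a (-0.47 to 3.37), Hspa1b (-0.22 to 3.29), Ighv14-4 (-0.62 to 10.9), Ighv5-4 (-2.04 to 7.24), Igkv6-17 (-2.80 to 7.20), Itgam (-0.11 to 0.85), Kdm5d (-0.95 to 0.09), Meis1 (-0.77 to 0.55), Mllt1 (-0.11 to 0.24), Mllt3 (-0.13 to 1.67), Uty (-1.25 to 0.11), Xist (-2.03 to 6.35), S100a8 (-0.27 to 3.22), Mpo (-1.19 to 1.83), Hbb-bs (-5.95 to 0.71) and Fos (-0.22 to 0.96).

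The difference in share between the groups (MLL::AF9 minus MLL::ENL, in percentage points) with single libraries left out was -4.16 to 0.470 for the mitochondrial genome, -0.389 to 0.0656 for hemoglobin, 0.0726 to 3.26 for S100a8 and S100a9, 0.248 to 0.682 for immunoglobulin and -2.47 to 4.93 for the 10 most abundant genes. As shares of the TPM total it was 6.07 for S100a8 and S100a9 and 1.18 for immunoglobulin. No paired analysis was possible because the 2 groups share no replicate labels. With 3 mice a group, small differences were not detectable, and low genes rest on few counts.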

Other observations

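The genes with the widest range among the 3 libraries of a group included the following. The immunoglobulin variable genes Ighv5-4 and Igkv6-17 reached 460 and 795 CPM in MLL::AF9 2, and Ighv14-4 reached 585 CPM in MLL::AF9 42. Cpa3, a mast cell protease, stood at 0.371, 11.1 and 167 CPM in MLL::ENL NO, RL and L, and Cd34 was at 3.53, 20.4 and 326 CPM in the same libraries. The heat shock gene Hspa1a was at 2.04, 623 and 44.0 CPM in MLL::ENL NO, RL and L. Ltf, the lactoferrin gene of neutrophil secondary granules, was at 2374, 127 and 51.8 CPM in MLL::ENL NO, RL and L. The pseudogene Ftl2-ps was at 0, 128 and 132 CPM in MLL::AF9 2, 47 and 42, and at 0 CPM in the MLL::ENL libraries.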
